A study of Potamopyrgus antipodarum with 6 samples.

Results

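Long parts of the joined reference transcriptome of Potamopyrgus antipodarum were examined by methylated DNA immunoprecipitation and sequencing (MeDIP-Seq). They drew few reads on average over the 6 pools. Reads had been counted in windows of 100 bp. The members were chosen by their counts. A stretch ran from its first to its last window with a read in any pool, and at least 9 windows in a row without a read in all 6 pools bounded it. Stretches of at least 15 windows were kept when their mean raw count over windows and pools was under 5 and no window had a mean of 15 or more over the 6 pools. This rule kept 315 of 42150 stretches, with 5953 of the 240413 windows inside stretches, and 16.0% of the 1967 stretches of at least 15 windows. They are called sparse stretches here, and the 1652 remaining long stretches serve for comparison. By the pools of a single site, 276 of the 315 met these limits in Lake 2, 296 in River 1 and 258 in both.

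The study asked whether snails of this invasive parthenogenetic species from still and flowing water differ in the DNA methylation of the foot, the muscle with which a snail holds to the substrate. The samples were 3 DNA pools from Lake 2 (Lake Washington, a site without current) and 3 from River 1 (the fast-flowing main channel of the Snake River). Each pool held foot DNA of 10 field-collected snails according to the sample descriptions. Snails were kept for several days at a common temperature before dissection, no treatment was given, and the labels name no age or clone. The pool is the replicate, so the values show the average over its snails.

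In MeDIP an antibody against 5-methylcytidine pulls down fragments that carry methylated cytosines, so the count in a window rises with the number of methylated CpG sites there. In molluscs, as in many invertebrates, methylation is mosaic. It lies mostly in the bodies of a subset of genes, often those with broad and steady expression, while other sequence carries little. A reference made of transcripts holds exons joined together and no introns. A low count can come from little methylation, from few CpG sites, or from fragments that align poorly across exon borders, and without an unenriched library these cannot be told apart here.

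Most of the sparse stretches went against the label of long contigs. Of the 315, 235 (74.6%) held a run of exactly 8 windows without a read in any pool, 1 window short of the border that the rule asks for. A single such run lay in 228 of them, and 7 held 2. No other run of empty windows in a sparse stretch was longer than 7. Over the whole table, runs of empty windows became rarer from length 1, with 1413 runs, to length 7, with 4 runs, then jumped to 1979 runs of 8, 22906 runs of 9 and 9006 runs of 10. Lengths of 8 thus belong by number with the spacers of 9 or more between contigs and not with the gaps of 7 or fewer. The less covered of the windows beside the run held 1 read over all 6 pools in 170 of 242 runs (70.2%) and at most 3 reads in 222. The same feature was as common outside the members, in 1271 of 1652 other long stretches (76.9%).

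**Figure D1:**
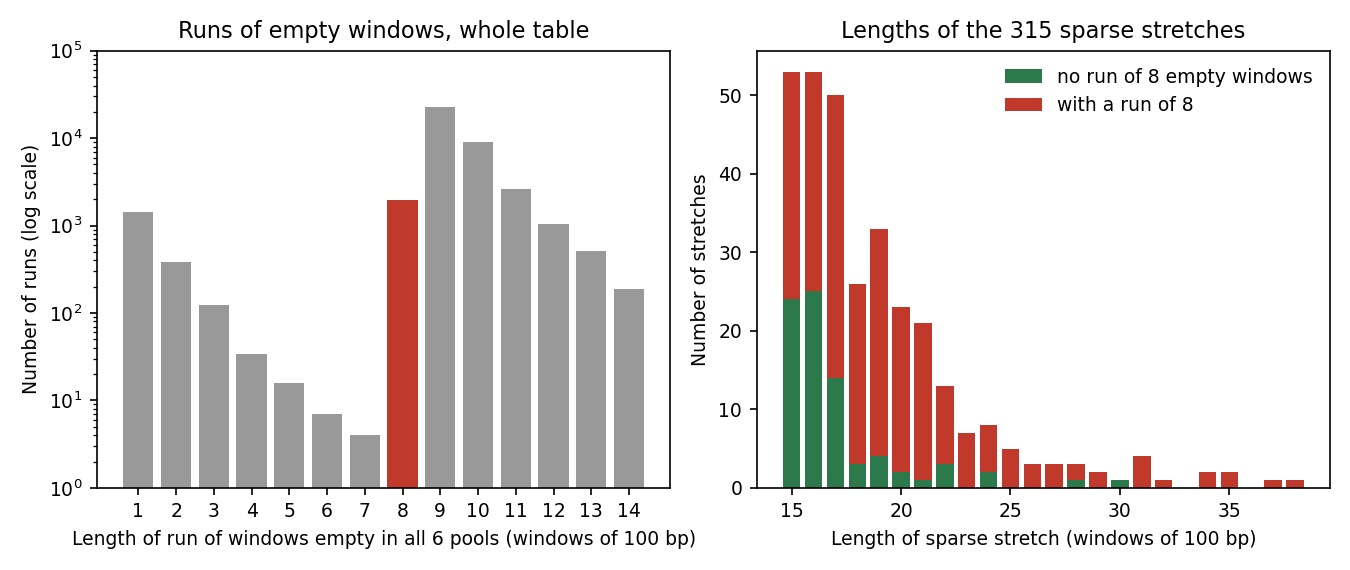
The left panel plots the number of runs of windows that were empty in all 6 pools (log scale) against the length of the run in windows of 100 bp, and runs of 8 (red, 1979 runs) stand with the longer spacers and far above the 4 runs of 7. The right panel plots the number of sparse stretches by length, with the 80 that hold no run of 8 in green and the 235 that do in red, and most stretches longer than 17 windows are red.

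Split at these runs, the 235 stretches gave 477 pieces with a median length of 5 windows and a maximum of 22, and only 2 pieces reached 15 windows. Pieces of the same stretch also differed in level. The ratio of the highest to the lowest piece mean had a median of 2.38, was at least 3 in 90 stretches and reached 45.0. The mean of 110 pieces was 5 or more. Outside the runs, the median over these stretches of the mean count was 3.13, and 36 of the 235 were then at 5 or more, so that these met the limit only with the empty run counted in. With borders set at runs of 8 windows, 87 stretches met the other criteria, and 80 of these were the members without such a run. With borders at 12 windows, 868 did. The values below are therefore given for the 315 and, where they bear a comparison, for the 80 stretches without a run of 8, called unbroken here.

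The 80 unbroken stretches were not spread evenly over the joined sequence. When the sequence was cut by length into 4 equal parts, 77 of them (96.2%) lay in part 1, 3 in part 2 and 0 in the rest. Of the other long stretches without a run of 8, 97.9% lay in part 1, against 23.6% of all stretches of any length. Position was thus shared with other unbroken long stretches.

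Sparse stretches were 15 to 38 windows long with a median of 18, or 1800 bp. Unbroken stretches had a median of 16 windows and a maximum of 30. The 5 longest sparse stretches, of 34 to 38 windows, all held a run of 8. Near the thresholds, the stretch just inside the limit on the mean (positions 4106401 to 4107900) had a mean of 4.86 and the one just outside (1316201 to 1317700) a mean of 5.06. On the limit for a single window, 14.8 lay just inside (26802201 to 26804200) and 15.0 just outside (377301 to 378800). There were 53 members of 15 windows and 88 stretches of 14 windows that met the rest of the rule. Positions are those of the joined transcriptome, which has no chromosomes, and no exon annotation of it was used.

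Sparse did not mean silent. The mean count per window ran from 0.156 to 4.86 with a median of 1.84, against a median of 12.3 in other long stretches, a gap that the rule itself set. The highest window of a stretch had a median of 9.0 over members and of 63.3 over other long stretches. A read was present in every pool in 309 of the 315. Of the 5953 windows, 2080 (34.9%) were empty in all pools, but 93.1% of these lay in runs of 8. Outside those runs 144 of 4017 windows (3.58%) were empty, against 0.636% in other long stretches. Low counts of a few reads filled most of the rest, since 1336 windows (33.3%) had a mean under 1, 1674 (41.7%) from 1 to under 5, 620 (15.4%) from 5 to under 10, and 243 (6.05%) from 10 to under 15. A read was seen in all 6 pools in 39.0% of these windows and in 1 pool only in 14.0%. No pool had more than 28 reads in any window of a sparse stretch.

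The signal inside unbroken stretches was uneven. The highest window fell into the first, middle and last part of equal length in 27, 30 and 23 stretches. Averaged over stretches in 10 equal parts and relative to the mean of the stretch, counts lay between 0.915 and 1.10. In other unbroken long stretches the outermost parts stood at 0.551 and 0.608 and the inner ones at 1.00 to 1.17. The highest window stood at a median of 3.13 times the mean of its stretch, against 2.56 times in the other unbroken long stretches. The correlation of adjacent windows had a median of 0.53 against 0.67. The mean counts of these sets had medians of 1.73 and 13.1, and the part of counting error in these gaps was not tested. In plain counts, the 2 end windows of unbroken sparse stretches had a mean of 1.22 and the inner windows one of 2.25, against 9.57 and 39.2 in the other unbroken long stretches. These values use the counts that chose the members and are given as a description.

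The stretches with the fewest reads show how thin the evidence became. At 37971801 to 37973400 the 16 windows held 7, 0 and 0 reads in Lake 2 (pools 4, 5 and 6) and 3, 2 and 3 in River 1 (pools 7, 8 and 9). The unbroken stretch 2271001 to 2272500 held 14, 0 and 0 reads in Lake 2 and 2, 2 and 7 in River 1. In both, all Lake 2 reads came from pool 4, so that Lake 2 spread above and below River 1. An empty stretch in pool 5 or 6 still allowed a level of up to 3 reads, or 0.728 and 0.807 CPM, a count scaled so that all pools have the same total.

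The unbroken stretch 10603901 to 10605400 held 4, 4 and 3 reads in Lake 2 and 2, 0 and 2 in River 1. The unbroken stretch 452901 to 454400 held 6, 0 and 4 against 3, 4 and 0, and 45558401 to 45559900 held 6, 2 and 2 against 8, 0 and 6. With standard errors of 0.92 to 1.13 on the log2 scale in these 5 stretches, no difference between sites was detectable at this depth.

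No site difference was detected in the share of reads that the sparse stretches took as a whole. The rule had capped raw counts of these same pools, so this share cannot show that the sites are alike. The counts summed over the windows of the sparse stretches were 15903, 11241 and 9202 for Lake 2 and 10844, 8548 and 14815 for River 1. As a share of all window counts of the pool these were 0.318%, 0.271% and 0.240% in Lake 2 and 0.275%, 0.258% and 0.337% in River 1. The ranges of the sites overlapped, with pools 4 and 9 high and pool 6 low. The means were 0.276% ± 0.0396 (SD, n = 3) and 0.290% ± 0.0416, a difference of 0.0137 percentage points (two-sided exact permutation test, p = 0.6, where 0.1 is the smallest p that 3 pools against 3 allow). Pools 4 and 9 were also the deepest, with 4994212 and 4398017 window counts against 3317802 to 4151401 in the other 4. The part of depth in these shares was not tested.

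The 95% Wilson interval of the share, which covers counting error only, ran from 0.314% to 0.323% in pool 4 and from 0.235% to 0.245% in pool 6. Reads shared by adjacent windows make these intervals too narrow. The gap between these pools of the same site exceeded that between the site means. In the unbroken stretches alone the shares were 0.0789%, 0.0597% and 0.0552% in Lake 2 and 0.0651%, 0.0686% and 0.0829% in River 1, again with pools 4 and 9 highest. The difference was 0.00756 percentage points (exact permutation test, p = 0.5).

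In empty windows no site difference was detected either. Without a read were 48.9%, 55.7% and 58.5% of the windows in Lake 2 and 55.1%, 57.5% and 50.2% in River 1. Brought by calculation to the depth of the shallowest pool, these became 54.4%, 58.6% and 60.5% against 57.4%, 57.5% and 53.5%. River 1 was lower by 1.68 percentage points on average, within the spread of the pools (exact permutation test, p = 0.4). In the unbroken stretches the shares at equal depth were 37.5%, 51.2% and 51.2% in Lake 2 and 43.7%, 41.8% and 37.5% in River 1. Here pools 5 and 6 stood above every River 1 pool while pool 4 lay with the lowest, and the mean share fell by 5.64 percentage points from Lake 2 to River 1 (exact permutation test, p = 0.4).

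**Figure D2:**
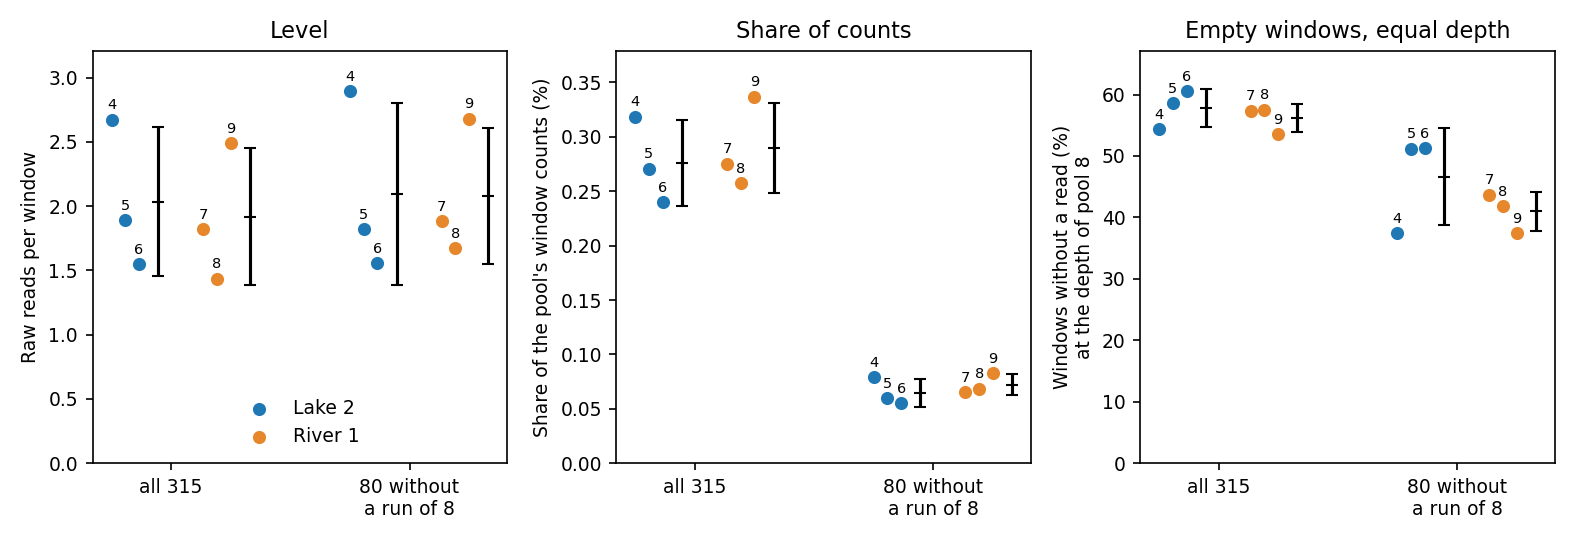
Raw reads per window, share of the window counts of the pool in percent, and windows without a read in percent at the depth of pool 8, for all 315 sparse stretches and the 80 unbroken ones. Each point is a pool of Lake 2 (blue) or River 1 (orange) with its number, the bar is the site mean ± SD (n = 3), and the sites overlap in every panel.

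The sites were next compared between sparse and other long stretches within each pool, which needs no scaling between pools. The mean window count of sparse stretches over that of other long stretches had a log2 ratio of -3.55 ± 0.22 (SD, n = 3) in Lake 2 and -3.49 ± 0.22 in River 1. The difference of 0.07 was smaller than the spread (exact permutation test, p = 0.7). It was 0.18 (p = 0.4, exact permutation test) for unbroken sparse against unbroken other stretches. Both differences were thus within the spread of the pools. The raw counts of these same pools, of both sites together, had split sparse from other long stretches. These ratios therefore cannot decide whether sparse stretches gained or lost relative to the others between the sites. The shares and empty windows given above rest on the same choice of members.

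Counts were then summed over each stretch and fitted by edgeR's quasi-likelihood test over the 36661 stretches whose counts summed to at least 10, all 315 members among them. Of the sparse stretches 1 (0.317%) passed an adjusted p of 0.05, against 1.42% of all stretches tested and 0.885% of the other stretches with a summed count in the range of the members. It was higher in Lake 2, where the share over all stretches is 1.14%, and 0 members were called as higher in River 1, against 0.286% (edgeR's classic exact test called 3 as higher in River 1 and DESeq2 called 0). In both directions together, the classic exact test called 1204 of all stretches and DESeq2 458, against 522 in the main fit. At p under 1e-05 the members called were 0 by edgeR, against 0.104% of all, and 0 by DESeq2, which called 51 of all stretches. The count past an adjusted p of 0.05 was 0 without pool 4, 6 or 9 and 2 without pool 5. It was 6 without pool 7, 5 of them higher in River 1. Over all 36661 stretches it was 146, 45 and 92 without pool 4, 6 and 9, 633 without pool 5 and 1570 without pool 7. At an unadjusted p of 0.05, 36 members (11.4%) passed, against 15.1% of all and 13.1% of others at the same count level. Here and below, count level means only the range of summed counts of the members, without a closer match. Of the 80 unbroken stretches 15 (18.8%) passed, above both shares, and 13 of these were higher in River 1. The median standard error of the log2 fold change was 0.30 in members, 0.37 in others at that count level and 0.14 in other long stretches. Small changes were thus harder to see in members than in other long stretches.

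The stretch that passed lies at 5605001 to 5606500, is unbroken, and had 96, 71 and 75 reads in Lake 2 and 36, 33 and 37 in River 1. Scaled by TMM, these were 18.3, 17.2 and 20.2 CPM against 9.18, 10.3 and 8.19 CPM. All 3 Lake 2 pools stood well above all 3 River 1 pools. The log2 fold change from Lake 2 to River 1 was -1.01 ± 0.22 (SE, adjusted p = 0.0244, edgeR). It no longer passed when pool 4, 6 or 9 was left out, with an adjusted p of 0.0804, 0.123 and 0.103 (edgeR), while the fold change stayed between -1.10 and -0.93 under every alternative run.

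Its reads lay at one end, which was seen in the profile and not sought beforehand. The first 700 bp held 88.5% of all reads, with 86, 68 and 71 in Lake 2 and 28, 24 and 31 in River 1. The remaining windows held 10, 3 and 4 in Lake 2 and 8, 9 and 6 in River 1, where the sites overlapped. Within the covered end, the window at 5605201 held 20, 13 and 15 reads against 5, 1 and 6.

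**Figure D3:**
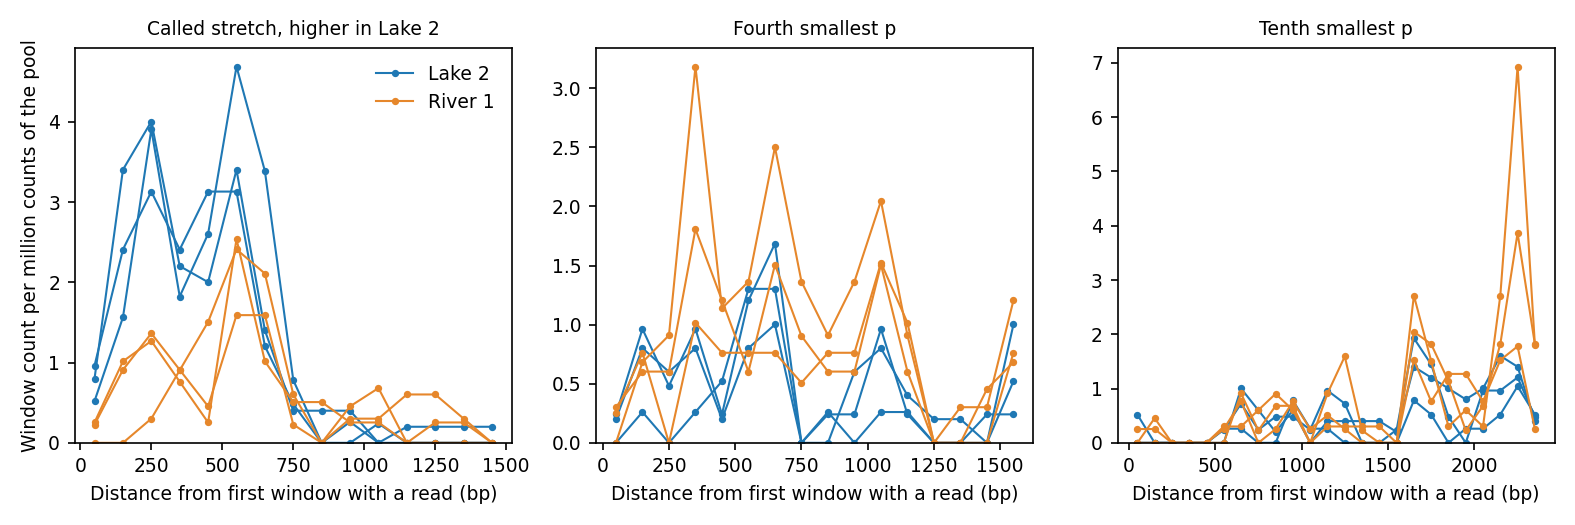
Window counts as CPM of the pool total, without TMM, along the stretches at 5605001, 5527601 and 141201, plotted against distance in bp from the first window with a read. Each line is a pool of Lake 2 (blue) or River 1 (orange), and in the first 6 windows of the stretch at 5605001 every Lake 2 point lies above every River 1 point, while the sites overlap in the window after that.

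The next stretches in the order of p did not pass, the lowest adjusted p being 0.0704 (edgeR). In the stretch at 30304601 to 30306200, which holds a run of 8, the reads were 32, 23 and 19 in Lake 2 and 35, 35 and 62 in River 1. Scaled, these were 6.10, 5.58 and 5.11 CPM against 8.93, 10.97 and 13.7 CPM, so the sites did not overlap (log2 fold change 1.00 ± 0.28, SE). Most of these reads lay in the 5 windows before the run, with a mean count of 6.07 against 1.33 in the 3 windows after it. The value for the stretch therefore mainly describes its first piece.

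The annotation of the study covers only regions that it had called as different between a lake and a river. For this list it used a looser p-value threshold than the 1e-05 at which it counted its regions. These calls came from Lake 2 against River 1 or from another lake and river, and 17 of the 315 members hold such a position. The share of other stretches that hold one was not counted. Among these 17 the annotation gives a gene identifier to the unbroken stretch 5527601 to 5529200 alone, LOC105896849, under protein modification. This stretch was listed for Lake 2 against River 1, so the study had already chosen it for a site difference. The same holds for the stretches at 5605001, 141201, 3697701 and 4011001, listed without a gene identifier. The stretch at 5527601 had 38, 33 and 19 reads in Lake 2 and 38, 42 and 77 in River 1. Scaled, these were 7.24, 8.01 and 5.11 CPM against 9.69, 13.2 and 17.0 CPM. River 1 was higher in all 3 pools, with pool 9 farthest from Lake 2, and the log2 fold change of 0.96 ± 0.28 (SE) had an adjusted p of 0.0733 (edgeR). In the unbroken stretch 30499301 to 30500800, 27, 22 and 18 reads stood against 25, 46 and 49 (log2 fold change 1.03 ± 0.32, SE). Pools 8 and 9 carried that difference, while pool 7, at 6.38 CPM, lay near the highest Lake 2 pool at 5.34 CPM.

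The unbroken stretch 141201 to 143600 had 65, 49 and 24 reads in Lake 2 and 50, 69 and 84 in River 1 (log2 fold change 0.76 ± 0.26, SE). Pool 7, at 12.8 CPM, was barely above pool 4 at 12.4 CPM. The last 8 windows held 70.7% of the reads of this stretch. Its window at 143401 held 7, 5 and 4 reads against 7, 23 and 17, so that pool 8 and pool 9 stood apart from the rest.

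The stretch at 21424901 to 21426700 had the largest log2 fold change of all members, 1.58 ± 0.45 (SE), from 10, 8 and 4 reads in Lake 2 and 20, 14 and 25 in River 1. The sites did not overlap, but the adjusted p was 0.0704 (edgeR). The remaining stretches among the 10 with the smallest p all held a run of 8. Those at 32073401 to 32075400, 3488401 to 3490400 and 5544701 to 5546900 had higher values in River 1, with log2 fold changes of 0.94, 1.17 and 0.88, and the one at 32764701 to 32766900 had a higher value in Lake 2, with -0.66. Of these 10 stretches, picked by p, 8 thus had a higher value in River 1. The only one that passed was higher in Lake 2, and no like list of other stretches was drawn.

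The 5 longest stretches showed how a stretch could join unlike pieces. That at 1627401 to 1631200 held 108, 58 and 55 reads in Lake 2 and 110, 65 and 106 in River 1. Its 8 windows before the empty run had a mean count of 0.65 and its 22 windows after it one of 3.57. Scaled values were 20.6, 14.1 and 14.8 CPM against 28.1, 20.4 and 23.4 CPM, so pool 8 lay just below pool 4 and the sites overlapped.

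The stretch at 1238401 to 1242100 held 143, 99 and 89 reads in Lake 2 and 83, 59 and 94 in River 1. Its pieces had mean counts of 0.46 and 5.53. In CPM every Lake 2 pool was above every River 1 pool, but the log2 fold change of -0.31 ± 0.18 (SE) did not pass (adjusted p = 0.422, edgeR). In the other 3, at 23619601 to 23623100, 26356001 to 26359500 and 2921901 to 2925300, the sites overlapped and the log2 fold changes were -0.05, 0.14 and -0.10.

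**Figure D4:**
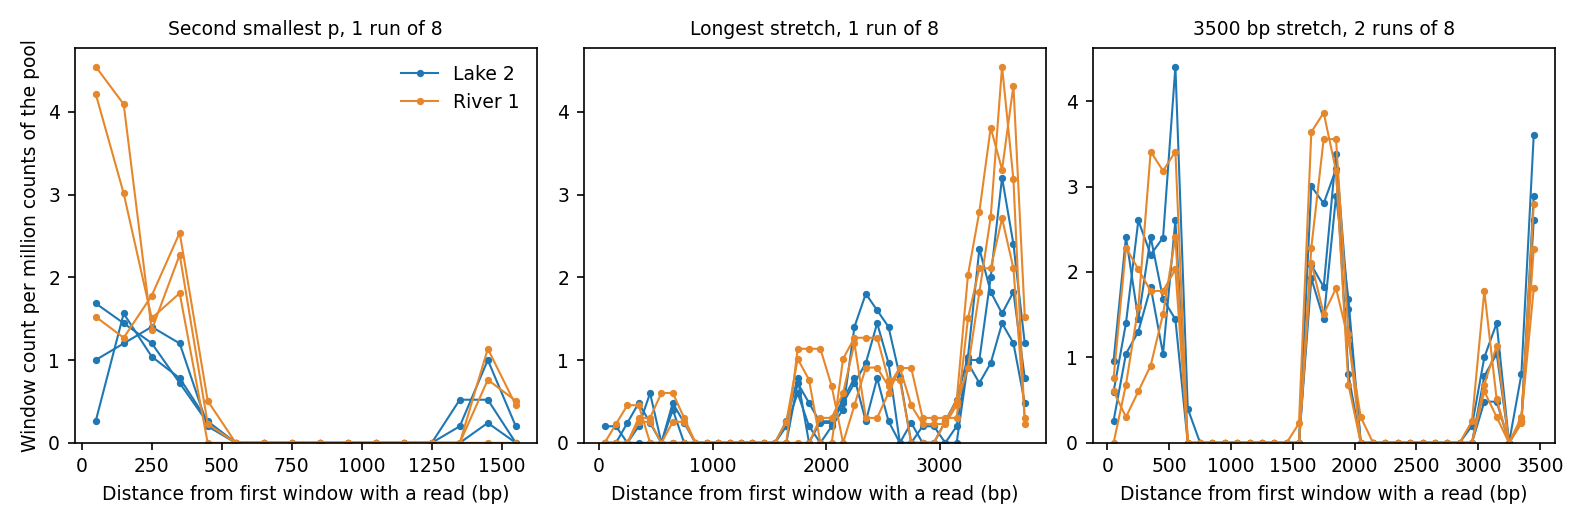
Window counts as CPM of the pool total, without TMM, along the stretches at 30304601, 1627401 and 23619601, plotted against distance in bp from the first window with a read, with a line for each pool of Lake 2 (blue) and River 1 (orange). The flat part at 0 in each is a run of 8 empty windows, of which the stretch at 23619601 has 2. The pieces before and after the run differ in height in the first 2 stretches, while at 23619601 the mean counts of the 3 pieces are 6.21, 6.44 and 3.36.

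Across the 315 stretches the log2 fold changes ranged from -1.25 to 1.58 with a median of 0.12, against 0.03 over all stretches tested and 0.08 in the members with a run of 8. They were positive, that is higher in River 1, in 192 members (61%). The share was 53.1% over all stretches tested and 52.3% over others at the count level of the members. In the unbroken stretches the median was 0.18 and 55 of 80 (68.8%) were positive. The sites did not overlap in 52 members (16.5%), against 20.3% of all and 18.5% of others at that count level. Of these, 35 were higher in River 1, or 11.1% of the members against 9.4% of all stretches, and 17 in Lake 2, or 5.4% against 10.9%. At an unadjusted p of 0.05, 26 members (8.25%) were higher in River 1, against 5.83% of all, and 10 (3.17%) in Lake 2, against 9.26%. Other stretches at the count level of the members gave 5.71% for River 1 and 7.35% for Lake 2. In the unbroken stretches 13 (16.2%) were higher in River 1 and 2 (2.5%) in Lake 2. The members were chosen by raw counts that were not scaled for depth. By the pools of a single site, 289 long stretches met the limits in Lake 2 and 349 in River 1. The part of this choice in the direction of the differences was not tested.

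The median log2 fold change varied with the level. Among the 60 sparse stretches with a mean count under 1 the median log2 fold change was 0.30, among the 117 from 1 to under 2 it was 0.17, among the 81 from 2 to under 3 it was 0.04, and among the 57 from 3 to under 5 it was -0.07. All tested stretches of the same levels, of any length, had medians of 0.21, 0.19, 0.18 and 0.05. A positive median at low counts was thus not particular to the sparse stretches. It moved with single pools, since over all 315 members the median was 0.02 without pool 6 and 0.02 without pool 9, and 0.23 without pool 4. After scaling, pool 9 was the highest pool in 104 members (33.0%) and pool 6 the lowest in 101. The part of these pools, of depth or of the scaling in this median was not tested.

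**Figure D5:**
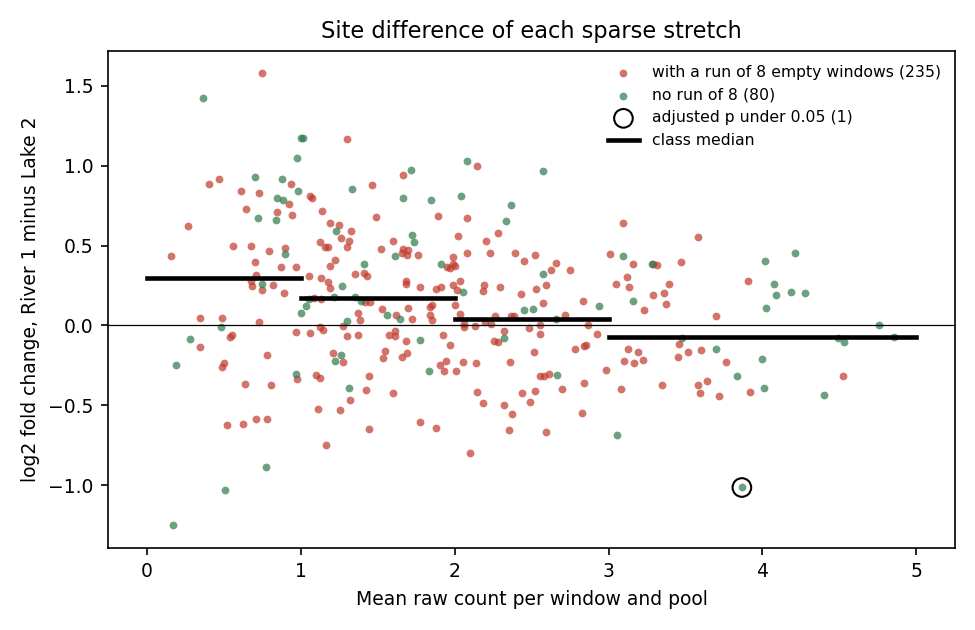
The log2 fold change from Lake 2 to River 1 of each sparse stretch is plotted against its mean raw count per window and pool, with unbroken stretches in green and those with a run of 8 empty windows in red. The short black lines mark the medians of 0.30, 0.17, 0.04 and -0.07 in the 4 classes of level, and the ring marks the stretch at 5605001, the only one past an adjusted p of 0.05.

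Windows were also tested singly, as the study had done to define differential DNA methylated regions (DMR). Of the windows in sparse stretches 2010 (33.8%) had the summed count of at least 10 needed to enter the fit of 151608 windows. At p under 1e-05, the threshold of the study, 0 of them were called, against 0.147% of all windows tested. DESeq2 also called 0 of them, and 10 of all windows. At an unadjusted p of 0.05 it was 194 (9.65%), against 14.3% of all and 10.0% of other windows at the same count level. Of the 194, 117 (5.82% of the member windows, against 5.26% of all) were higher in River 1 and 77 (3.83%, against 9.01%) in Lake 2, where other windows at the count level of the members gave 4.28% and 5.74%. At an adjusted p of 0.05, 7 (0.348%) were called, against 1.42% of all and 0.437% at the same count level. The 7 lay in 7 different stretches, 5 of them unbroken and all 5 listed by the study for Lake 2 against River 1. The count was 0 without pool 6, 1 without pool 4 or pool 9, 2 without pool 8 and 25 without pool 7, and 2 windows passed 1e-05 without pool 7.

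Of these 7, 3 were higher in Lake 2, or 0.149% of the member windows against 1.11% of all. They were the window at 5605201 described above and 2 others with like counts. The window at 4011501 had 27, 12 and 18 reads in Lake 2 and 11, 3 and 5 in River 1 (log2 fold change -1.39 ± 0.37, SE, adjusted p = 0.0393, edgeR). The window at 3698301 had 19, 14 and 15 against 9, 2 and 4 (log2 fold change -1.48 ± 0.40, SE). In each, no River 1 pool reached the level of any Lake 2 pool after scaling, though pool 7 came close at 4011501.

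The other 4 were higher in River 1, or 0.199% of the member windows against 0.305% of all. In 2 of them no Lake 2 pool had a read. The window at 70562901 had 6, 1 and 5 reads in River 1, at least 4.46-fold higher than Lake 2 when 3 counts over the site are taken as the limit that 0 allows. The window at 5528301, in the stretch with the gene identifier, had 2, 3 and 6 reads in River 1, at least 4.09-fold higher on the same basis. Both rest on 12 and 11 reads in all.

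The window at 143401, described above, had a log2 fold change of 1.71 ± 0.42 (SE, adjusted p = 0.0236, edgeR). The window at 30304601 had 5, 7 and 1 reads in Lake 2 and 6, 14 and 20 in River 1 (log2 fold change 1.77 ± 0.46, SE). Pool 7 there, at 1.54 CPM, lay below pool 5 at 1.70 CPM, so the sites overlapped. Each of the 7 windows failed to pass under 4 to 8 of the 11 or 12 alternatives run for it, DESeq2 among them. DESeq2 passed only 9 of all 151608 windows, against 2152 in the main fit, so failing there says little about single windows.

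Over all 2010 windows tested in sparse stretches, the log2 fold change was positive in 1130 (56.2%). The share was 49.6% over all windows and 48.8% over other windows at the same count level. The sites did not overlap in 295 windows (14.7%), against 18.6% of all. River 1 was the higher site in 169 of these (8.41% of the member windows, against 7.74%) and Lake 2 in 126 (6.27%, against 10.9%). For windows too, the part of the choice by raw counts in the direction was not tested.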

How the data were processed

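MeDIP-Seq of foot DNA gave 6 pools, 3 per site, with 3317802 to 4994212 window counts each. Alignment to the joined transcriptome (Bowtie2) and counting in 100 bp windows (MEDIPS) were done by the authors. The deposited counts are raw and not normalized, and no window exceeds 300. Adjacent windows can share reads. Pools were assigned to sites by location labels. Titles number the River 1 pools 8, 9 and 10 where the table has 7, 8 and 9, so only their site is certain. Of the per-sample columns, 6 with RPKM were not used, nor were the authors' own fold changes and p-values.

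The members and lists were chosen with earlier results of these data known. Counts per stretch and per window, with a sum of at least 10 over the pools, were tested with edgeR 4.0.16 in R 4.3.3 (TMM, quasi-likelihood, no covariates, Benjamini-Hochberg adjustment over all features). Values per pool were compared by two-sided exact permutation tests (scipy 1.17.1). Empty windows at equal depth are the expectation under binomial thinning. Alternatives were other size factors, other count minimums, edgeR's classic exact test, DESeq2 1.42.0, other borders, lengths and levels in the rule, and leaving out each pool. Omitting stretches with a run of 8 was added after the data were seen. Stretches named are the 10 with the smallest p, the 5 longest, the 5 with the lowest mean, those nearest a threshold and any with a gene identifier, and windows those past an adjusted p of 0.05, a choice made after their values were seen. Scripts were tested on simulated data. Whether the pools of a site were collected on separate occasions is not given in the sources used here, so p-values measure the spread between pools of different snails.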

Additional observations from a re-analysis of the deposited data

How the results depend on the processing

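The number of sparse stretches depended on the border, with 87 at runs of 8 windows and 868 at runs of 12 in place of 315. Stretches past an adjusted p of 0.05 numbered 1, higher in Lake 2. They numbered 7 with a minimum sum of 1, 6 of them higher in River 1. With edgeR's classic exact test they numbered 4, 3 of them higher in River 1. They numbered 0 to 6 when single pools were left out, most without pool 7, where 5 of the 6 were higher in River 1. Calls over all stretches moved as well, from 522 of 36661 to 1464 of 42150 with a minimum sum of 1. They numbered 1204 with the classic exact test, 45 without pool 6 and 1570 without pool 7. Windows past an adjusted p of 0.05 numbered 7, but 2 without normalization factors, 12 with a minimum sum of 1 and 0 with DESeq2. They numbered 0 to 25 when single pools were left out, again most without pool 7. Over all windows the calls went from 2152 to 1615 without normalization factors, 3294 with a minimum sum of 1 and 9 with DESeq2. They numbered 298 without pool 6 and 5077 without pool 7. Windows past 1e-05 numbered 0 to 2 when single pools were left out, the 2 without pool 7. Over all windows 541 passed 1e-05 without pool 7, against 223 with all pools. The cause was not tested.

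When single pools were left out, the site difference in the share of counts ranged from -0.00979 to 0.0347 percentage points, that in the log2 ratio to other long stretches from -0.0513 to 0.19, that in empty windows from -3.41 to -0.331 percentage points and the median log2 fold change from 0.02 to 0.23. The share changed sign without pool 6 (-0.00464) and without pool 9 (-0.00979), and so did the log2 ratio (-0.0353 and -0.0513). These differences kept their sign under the other alternatives run. A log2 fold change had a median SE of 0.30, so that the depth limits what single sparse stretches can show. No paired analysis was possible because the labels give the pools of the sites no shared replicate numbers.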
